A study of Rattus norvegicus with 9 samples.

Results

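The Serpina3 family comprises the rows of the count table whose symbol begins with Serpina3. There were 6 such rows of 23953, namely Serpina3n, Serpina3i, Serpina3g, Serpina3f, Serpina3m, and Serpina3b. The family was chosen on its values in the comparisons with the pLV-Exo-Wnt5a group, in which Serpina3n and Serpina3i had already been seen to stand out, so these values are a description. Calls in those comparisons are counted only beside the share of all genes called, and nothing is read from them. The cells were neural stem cells (NSCs) from rat spinal cord, all kept in differentiation medium. Con cells received no exosomes. Exo cells received exosomes of bone marrow mesenchymal stem cells (BMSCs) that carried an empty lentiviral vector. pLV-Exo-Wnt5a cells received exosomes of BMSCs transduced to overexpress rat Wnt5a. Each group had 3 libraries, 9 in all, which the labels give as separate samples. The sample titles and library names state no batch. Nothing in the labels states that the libraries of a group came from separate cultures, so p-values measure only the spread between these samples, which may be technical.

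Serpins are protease inhibitors that act as bait. The target protease cuts the exposed reactive loop of the serpin, the serpin then changes shape, and the protease is trapped in a covalent complex. Humans have a single SERPINA3 gene, which encodes the secreted acute phase protein alpha-1-antichymotrypsin, whereas rodents carry a cluster of related Serpina3 genes. In the nervous system, Serpina3n is known as a secreted inhibitor of serine proteases of immune cells and as a marker of reactive astrocytes.

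The rat Serpina3 genes lie together on chromosome 6. RefSeq lists 7 of them on the GRCr8 assembly, 6 of them protein coding. The cells are labelled as rat, yet genes in the count table bear the symbols and NCBI numbers of mouse genes, and only 2 of its 6 Serpina3 symbols, Serpina3n and Serpina3m, are symbols of a rat gene in RefSeq. The windows around the start of these 2 genes are shown because Serpina3n held nearly all Serpina3 counts and Serpina3m, whose window is the most like it, held almost none. Rows of the table and rat genes were joined by symbol alone, so a row need not hold the reads of the rat gene of that name. Each runs 5′ to 3′ from 250 bases before the start site used for the window to 50 bases after it. That site is the first base of the annotated gene for Serpina3n, and lies 5 bases inside the gene for Serpina3m and 61 bases inside it for Serpina3l. Capitals mark TTCNNNGAA, the palindrome bound by STAT factors, which reads the same on both strands.
Serpina3n, chr6:129088142-129088441, plus strand: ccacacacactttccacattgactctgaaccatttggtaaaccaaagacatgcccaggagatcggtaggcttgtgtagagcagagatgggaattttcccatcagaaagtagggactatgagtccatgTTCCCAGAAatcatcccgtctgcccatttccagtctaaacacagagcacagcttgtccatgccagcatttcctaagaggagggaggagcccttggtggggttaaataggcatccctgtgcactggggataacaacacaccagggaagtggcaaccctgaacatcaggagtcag
Serpina3m, chr6:128836790-128837089, minus strand: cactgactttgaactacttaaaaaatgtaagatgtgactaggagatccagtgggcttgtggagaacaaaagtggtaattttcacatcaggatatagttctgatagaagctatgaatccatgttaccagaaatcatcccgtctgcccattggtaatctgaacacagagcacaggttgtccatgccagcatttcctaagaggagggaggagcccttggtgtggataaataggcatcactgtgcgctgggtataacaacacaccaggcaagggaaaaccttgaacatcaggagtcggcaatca

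The 2 windows shared 75.95% of aligned bases. Of the 5 rat Serpina3 windows given, the next most like Serpina3n was that of Serpina3l (64.72%), followed by Serpina3a (49.47%) and Serpina3j (49.28%). The Serpina3n window held the STAT motif as TTCCCAGAA, which begins 123 bases before the start. The motif was also present in the windows of Serpina3l and Serpina3a, beginning 129 and 175 bases before the site used for their windows, and these letters were not in those of Serpina3m and Serpina3j. Over all 33469 windows of the rat table, 8.87% held the motif. The NF-kB consensus was searched on either strand as GGGRNWYYCC, where R is A or G, W is A or T, and Y is C or T. In this form it was found in the Serpina3a window alone among the 5, and in 4.18% of all windows. Looser forms of it were not searched. These matches describe the letters of the windows, and binding was not measured.

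The count table held between 32765138 and 40427647 counts per library. At this depth 3 counts corresponded to 0.0727 to 0.0908 CPM (the count scaled to a common library size, after TMM normalization), taken as the lowest level that could be measured. Con replicate 1 stood apart from the other libraries, with a mean distance of 76.6 to the others on the log2 scale compared with 59.7 to 66.0 for the remaining 8. Values of Serpina3n that rest on it are therefore given with and without it. Of the markers checked, those of astrocytes (Gfap, Aldoc, Aldh1l1), neurons (Tubb3, Stmn2, Elavl3), and NSCs (Vim, Fabp7, Sox2) were present in every library. In bulk RNA, more cells of a type and more RNA per cell cannot be told apart.

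Serpina3n (NCBI gene 20716) was highest in the pLV-Exo-Wnt5a group. Its counts were 2510, 1370, and 1319 in the Con libraries, 1354, 1453, and 1460 in the Exo libraries, and 9260, 8197, and 10976 in the pLV-Exo-Wnt5a libraries. After TMM normalization these corresponded to 66.2, 35.2, and 39.9 CPM in Con, 34.6, 36.1, and 36.8 CPM in Exo, and 233.8, 223.6, and 265.9 CPM in pLV-Exo-Wnt5a. The pLV-Exo-Wnt5a libraries did not overlap those of either other group, whereas a Con library lay within the Exo range. The group levels were 241 ± 22.04 CPM in pLV-Exo-Wnt5a, 47.1 ± 16.7 CPM in Con, and 35.8 ± 1.16 CPM in Exo (mean ± SD, n = 3).

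In terms of size, mean Serpina3n CPM in pLV-Exo-Wnt5a was 6.73 times that in Exo and 5.12 times that in Con. The lowest pLV-Exo-Wnt5a library was 6.07 times the highest Exo library and 3.38 times the highest Con library. In the fits across all genes, the log2 fold change (log2FC) of Serpina3n was 2.76 (SE 0.08) against Exo and 2.35 (SE 0.20) against Con. The smaller value against Con moved with Con replicate 1. Without that library it was 2.68 (SE 0.10), close to the value against Exo.

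**Figure D1:**
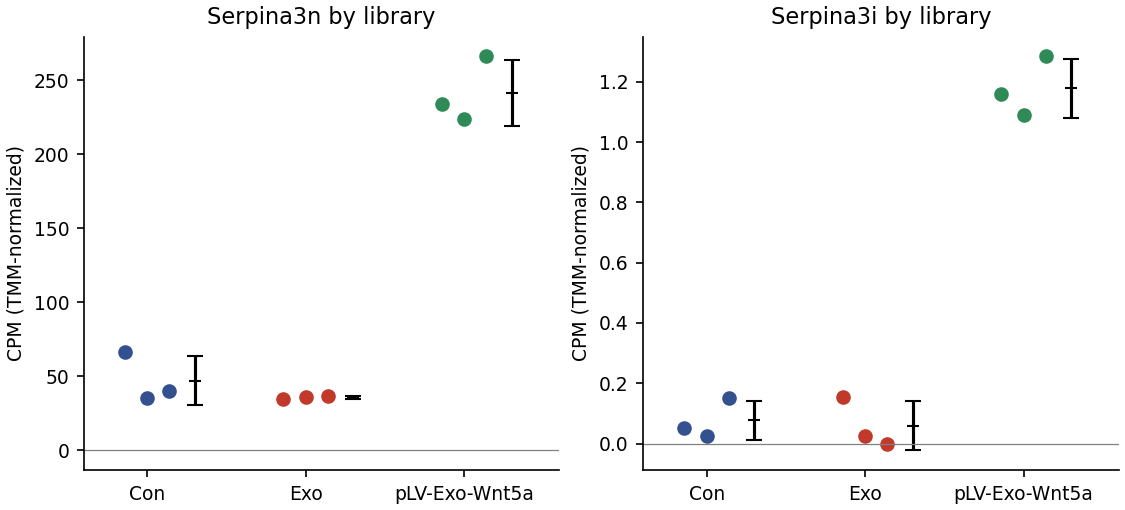
Serpina3n (left) and Serpina3i (right) in CPM after TMM normalization, with 1 point per library and the mean ± SD (n = 3) beside each group. Serpina3n lies between 223.6 and 265.9 CPM in the pLV-Exo-Wnt5a libraries and at or below 66.2 CPM in the other 6, and the vertical scales of the panels differ.

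The spread of Serpina3n within a group differed between groups. Its coefficient of variation was 3.25% in Exo, where counting error alone would give 2.65%. In pLV-Exo-Wnt5a it was 9.14% against 1.03% from counting, and in Con it was 35.5% against 2.40%. The wide spread in Con came from replicate 1, which at 66.2 CPM was 1.76 times the mean of the other Con libraries (37.5 CPM).

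Exosomes without Wnt5a overexpression were compared with medium alone to ask whether Serpina3n moved with the exosomes themselves. This comparison did not choose the family, but it shares its libraries with those that did. A gene was called in edgeR's quasi-likelihood test if its Benjamini-Hochberg adjusted p (Q) was under 0.05 and it changed by more than 2 times in either direction. Serpina3n had a log2FC of -0.39 in Exo against Con (SE 0.20), with an unadjusted p of 0.0744 and a Q of 0.362 in the edgeR test, and was not called. Without Con replicate 1 the log2FC was -0.07 (SE 0.09) with Q = 0.779 in edgeR. Of all 15070 genes tested in this comparison, 0.00664% were called, that is 1 gene, and it was no Serpina3 gene. DESeq2 did not call Serpina3n either.

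When each library was left out in turn, it lay between -0.56 and -0.07 in Exo against Con, between 2.68 and 2.81 in pLV-Exo-Wnt5a against Exo, and between 2.18 and 2.68 in pLV-Exo-Wnt5a against Con. The ranges against Exo and against Con met. The lowest and highest of the pLV-Exo-Wnt5a values against Con were those without Con replicate 2 and without Con replicate 1.

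**Figure D2:**
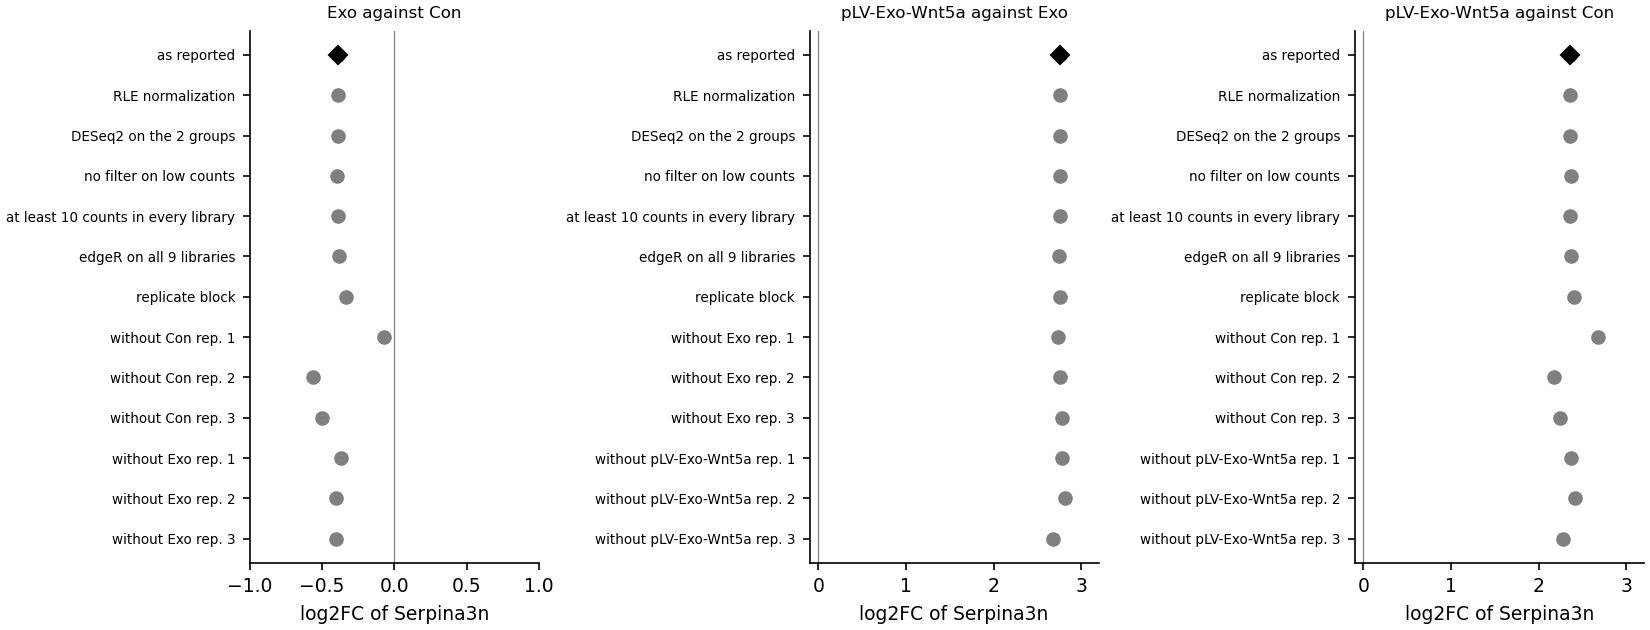
Log2FC of Serpina3n in each of the 3 comparisons, as reported (diamond) and under each other setting or with a library left out (circles); the horizontal axis of Exo against Con differs from that of the other panels. The values against Exo lie between 2.68 and 2.81, and leaving out Con replicate 1 moves both comparisons with Con.

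Serpina3i (NCBI gene 628900) was close to the limit of measurement outside the pLV-Exo-Wnt5a group. Its counts were 2, 1, and 5 in Con, 6, 1, and 0 in Exo, and 46, 40, and 53 in pLV-Exo-Wnt5a. Its level in pLV-Exo-Wnt5a was 1.16, 1.09, and 1.28 CPM, compared with at most 0.153 CPM in the other 6 libraries. The pLV-Exo-Wnt5a libraries did not overlap the others, and the Con and Exo libraries overlapped each other. Summed over libraries, the counts were 8 in Con, 7 in Exo, and 139 in pLV-Exo-Wnt5a.

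Per total count, Serpina3i in pLV-Exo-Wnt5a was 20.2 times that in Exo (95% counting interval 9.53 to 51.1) and 16.6 times that in Con (8.22 to 39.3). These intervals cover counting error only, as do all intervals given here. The fitted log2FC was 4.26 (SE 0.70) against Exo and 3.94 (SE 0.58) against Con. Serpina3i passed the filter on low counts only through the pLV-Exo-Wnt5a group, so it had to differ if it was tested at all, and it was not tested in Exo against Con. With 1 library left out, the highest fitted value was 6.24 against Exo without Exo replicate 1 and 4.80 against Con without Con replicate 3, the libraries of their groups with the most Serpina3i counts. The lowest was 3.70 against Exo without Exo replicate 3 and 3.52 against Con without Con replicate 2.

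Of the 6 Serpina3 rows, 2 were tested and both were called in pLV-Exo-Wnt5a against Exo, where 0.139% of 15132 genes were called higher and 0.0198% lower. The same 2 were tested and called in pLV-Exo-Wnt5a against Con, where 0.0663% of 15089 genes were called higher and 0% lower. Since the family was chosen on these comparisons, the counts are a description. With 1 library left out, Serpina3i was called in 1 of 6 fits in each. In Exo against Con, 1 of the 6 rows was tested and 0 were called by edgeR or DESeq2, with 0 at an unadjusted edgeR p under 0.05 in the reported fit.

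Genes of 1 cluster can share reads, and how reads that match several Serpina3 genes were assigned is not given in the sources used here. Counts of single rows, Serpina3n included, are therefore uncertain as to which rat Serpina3 gene they came from. The share of all Serpina3 counts that fell on each row was computed for each library. Gene lengths were not available for these rows, so the shares are of counts and not of transcripts. Serpina3n held between 99.2% and 99.7% of the Serpina3 counts of every library.

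Serpina3i held 0.494%, 0.486%, and 0.481% of the Serpina3 counts in the pLV-Exo-Wnt5a libraries. The share was 0.079%, 0.0727%, and 0.377% in Con and 0.441%, 0.0686%, and 0% in Exo. The zero stands for 0 of 1465 counts, whose exact 95% interval reaches 0.252%. Pooled over libraries, the share was 0.487% in pLV-Exo-Wnt5a (exact 95% interval 0.409 to 0.574), 0.153% in Con (0.066 to 0.301), and 0.163% in Exo (0.0657 to 0.336). The pooled Con and Exo values rest on few counts, 5 of 8 from Con replicate 3 and 6 of 7 from Exo replicate 1. The share was nearly equal among the pLV-Exo-Wnt5a libraries, and the intervals of all other libraries except Con replicate 1 and Exo replicate 3 overlapped theirs. The part of shared reads in these counts was not tested.

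**Figure D3:**
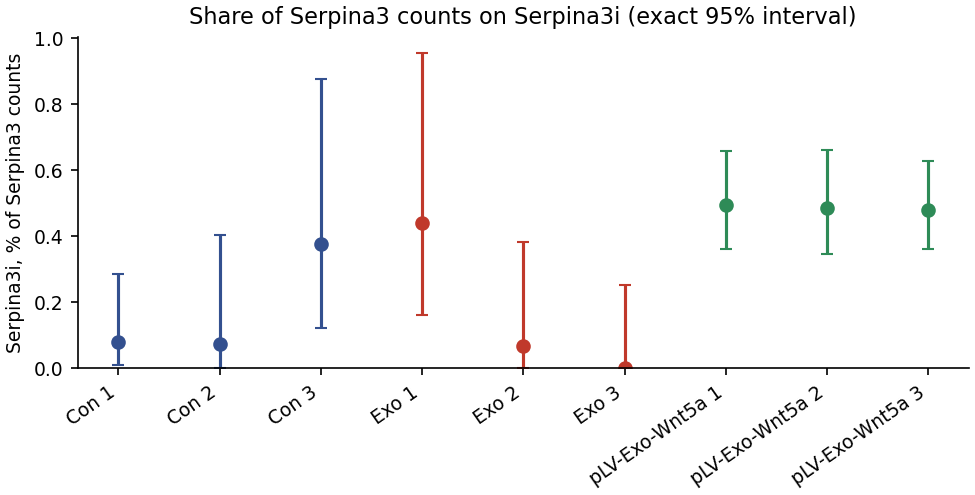
Percent of all Serpina3 counts that fell on Serpina3i in each library, with exact 95% binomial intervals, which cover counting error only. The 3 pLV-Exo-Wnt5a libraries lie between 0.481% and 0.494%, and the other 6 libraries between 0% and 0.441%.

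The remaining rows were too low to test in any comparison. Serpina3g (NCBI gene 20715), which encodes an intracellular inhibitor of cysteine cathepsins, had 15, 4, and 0 counts in Con, 1, 4, and 0 in Exo, and 0, 0, and 2 in pLV-Exo-Wnt5a. Serpina3f (238393) had 4 counts in Con replicate 1, 4 in Exo replicate 3, and 0 elsewhere. Serpina3m (20717) had 4 counts in Con replicate 3 alone, and Serpina3b (271047) had 1 count in Exo replicate 3 alone. Summed over these 4 rows, the counts were 19, 4, and 4 in Con, 1, 4, and 5 in Exo, and 0, 0, and 2 in pLV-Exo-Wnt5a. The highest of these sums was in Con replicate 1, the Con library with the most Serpina3n, and the sums were 0 to 2 counts in pLV-Exo-Wnt5a, where Serpina3n was highest. A count of 0 allows up to 3 counts, or 0.0727 to 0.0908 CPM.

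The genes whose pattern was most like that of Serpina3n were taken by Pearson's r of log2 CPM over the 9 libraries, among 15457 genes. These values are a description, since the 9 libraries fall into the same 3 groups for every gene and Serpina3n was chosen for its level in pLV-Exo-Wnt5a. The 10 most alike were Gfap (0.987), H2-D1 (0.986), H19 (0.985), C4b (0.984), Oasl2 (0.975), H2-Q4 (0.971), Slc1a4 (0.970), Ccl6 (0.967), S1pr3 (0.966), and Azin2 (0.965). Gfap encodes the intermediate filament of astrocytes, C4b a complement component, H2-D1 and H2-Q4 class I histocompatibility antigens, and S1pr3 a receptor for sphingosine-1-phosphate. H19 is a non-coding RNA, Oasl2 an interferon-induced gene, Slc1a4 an amino acid transporter, and Ccl6 a chemokine. In all, 16 genes had an r above 0.95. The choice depends on the measure, since by Spearman's rho 1 of the 10 genes was shared.

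Over the 6 Con and Exo libraries alone, r with Serpina3n was 0.990 for Gfap, 0.905 for Azin2, 0.876 for H19, 0.862 for C4b, 0.850 for H2-D1, and 0.804 for S1pr3. It was lower for H2-Q4 (0.643), Slc1a4 (0.633), Oasl2 (0.593), and Ccl6 (0.461). Among these 6 libraries, Con replicate 1 lay above the other Con and all Exo libraries in 9 of the 10 genes and below every pLV-Exo-Wnt5a library in all 10. Most of these values were lower without that library. Over the 5 remaining Con and Exo libraries r was 0.740 for Gfap, 0.709 for Oasl2, 0.611 for S1pr3, 0.467 for H2-D1, 0.457 for Slc1a4, and 0.318 for C4b, and it was below 0 for Azin2 (-0.293), H2-Q4 (-0.412), H19 (-0.417), and Ccl6 (-0.826). Serpina3i had an r of 0.923 over 9 libraries and of 0.0522 over the Con and Exo libraries.

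Gfap had the highest r, over a smaller range. It was at 3103, 2261, and 2290 CPM in Con, at 2195, 2213, and 2275 CPM in Exo, and at 3971, 4071, and 4029 CPM in pLV-Exo-Wnt5a. The paper reports the other direction for GFAP in NSCs, with mRNA and protein lower in Exo than in Con and lowest in pLV-Exo-Wnt5a. When the cells for RNA-seq were taken is not stated there. As for Serpina3n, Con replicate 1 stood above the other Con libraries, here by 1.36 times their mean. With the group means removed, the deviations of both genes had an r of 0.944 over the 9 libraries, which rested on Con replicate 1, since without it this r was 0.246. Within pLV-Exo-Wnt5a the library with the most Serpina3n, replicate 3, was not the one with the most Gfap. Over all groups without Con replicate 1, r was 0.998 for Gfap, which then mainly reflects the difference between pLV-Exo-Wnt5a and the other groups, and 9 of the 10 genes stayed among the 10 most alike, an alternative added after the data were seen, as were the other values without Con replicate 1 and the medians over genes tested in all 3 comparisons.

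**Figure D4:**
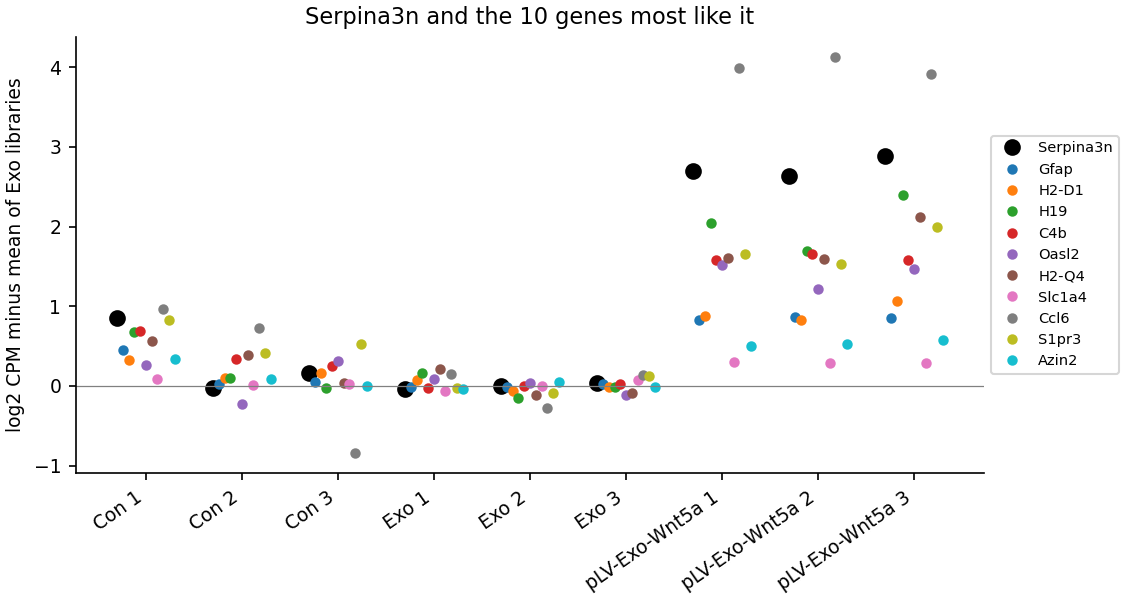
Log2 CPM of Serpina3n (black) and of the 10 genes most like it in each library, minus the mean of the 3 Exo libraries of the same gene. All 11 genes lie above 0 in the pLV-Exo-Wnt5a libraries, and Con replicate 1 lies above the other Con libraries in all but Oasl2.

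The least alike genes were Rgcc (r = -0.958), Mpp7 (-0.950), and Or10ad1 (-0.947). Rgcc, a cell cycle regulator, was at 28.5 ± 1.38 CPM in pLV-Exo-Wnt5a, 36.5 ± 0.719 CPM in Exo, and 35.3 ± 0.653 CPM in Con (SD, n = 3). Mpp7, a scaffold protein of cell junctions, was at 0.382 ± 0.0292, 1.13 ± 0.116, and 0.827 ± 0.149 CPM in the same order. These genes were picked for being low where Serpina3n was high, so their levels are a description.

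Outside the Serpina3 family, edgeR called 0 serpins in any comparison after the filter on low counts. Without that filter it called Serping1 in both comparisons with pLV-Exo-Wnt5a (Q = 0.00285 against Exo and 0.023 against Con in edgeR) and Serpini1 in Exo against Con (Q = 0.0135 in edgeR). Clade A, the clade of Serpina3, had 4 further listed genes in the table, of which Serpina9 was the only one with enough counts for a test, and it was not called. Of 21 listed serpins of clades B to I in the table, 10 were tested in pLV-Exo-Wnt5a against Con and 9 in each other comparison. The edgeR test called 0 in each, with 2 at an unadjusted p under 0.05 each time, and DESeq2 called Serping1 alone, in both comparisons with pLV-Exo-Wnt5a. Over all genes tested, 14.9% had an unadjusted edgeR p under 0.05 in Exo against Con, 11.97% in pLV-Exo-Wnt5a against Exo, and 8.35% in pLV-Exo-Wnt5a against Con, the shares beside which the list counts at that level stand. The median log2FC of the serpins was 0.16 in pLV-Exo-Wnt5a against Exo and 0.17 against Con over the 9 genes tested in all 3 comparisons, which leaves out Serpinb8, compared with 0.00 over all genes tested. Serpine2, an extracellular inhibitor of thrombin and plasminogen activators also known as nexin-1, had the highest CPM of these and lay at 433 ± 8.85 CPM in Con, 456 ± 20.04 in Exo, and 421 ± 52.2 in pLV-Exo-Wnt5a. Serpinh1, a collagen chaperone without inhibitor activity, lay at 203 ± 25.4, 164 ± 6.502, and 172 ± 19.8 CPM.

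Serping1, the inhibitor of complement C1, came nearest to a call among the other serpins. It lay between 0.782 and 1.58 CPM in the Con and Exo libraries and between 2.24 and 3.15 CPM in pLV-Exo-Wnt5a, without overlap. Its log2FC was 1.52 (SE 0.30) against Exo with Q = 0.0593 and 1.33 (SE 0.31) against Con with Q = 0.277 in edgeR, or 1.67 with Q = 0.108 without Con replicate 1. In DESeq2 the Q values were 0.000669 and 0.0343.

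**Figure D5:**
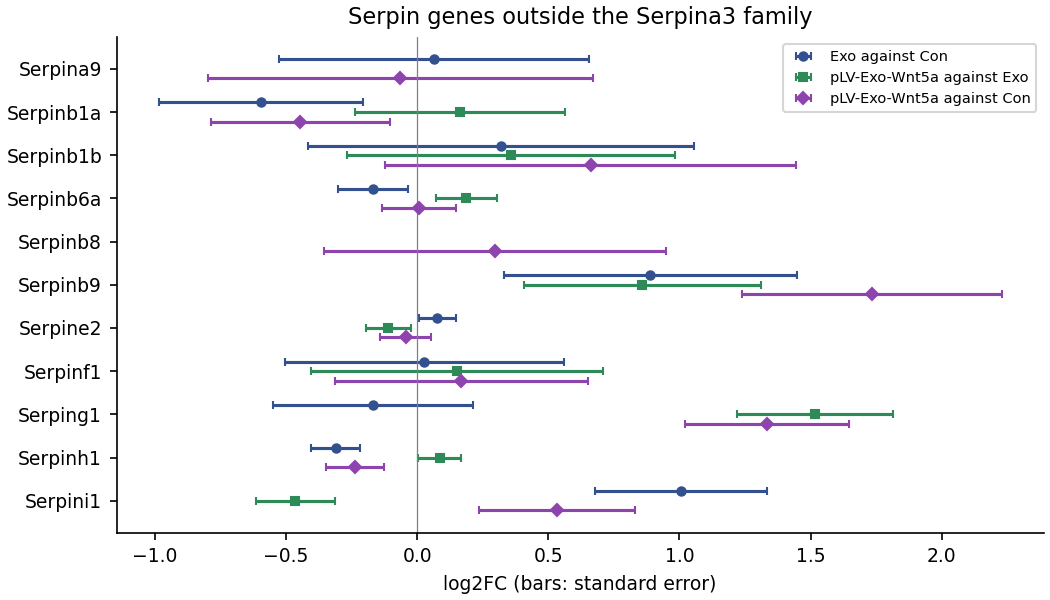
Log2FC ± SE of the serpins outside the Serpina3 family that were tested in pLV-Exo-Wnt5a against Con, in all 3 comparisons; a missing point means that the gene did not pass the filter there. Serping1 lies at 1.52 against Exo and 1.33 against Con, and Serpine2 and Serpinh1 lie between -0.31 and 0.09.

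Proteases known as targets of Serpina3 proteins were not called in any comparison. Of 9 listed, 4 were in the table and 2 were tested. Prtn3, a neutrophil serine protease, lay between 1.79 and 3.03 CPM over all libraries, and Mmp9, a matrix protease, between 0.291 and 1.09 CPM. Ctsg, which encodes cathepsin G, the classical target of alpha-1-antichymotrypsin, was at or below 0.121 CPM. In edgeR and in DESeq2, 0 of the 2 tested were called in each comparison, with 0 at an unadjusted edgeR p under 0.05.

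Signals known to raise Serpina3n in other settings were examined through lists of their ligands, receptors, and responsive genes. Of 20 genes of cytokine receptor and STAT3 signaling, 15 were tested in Exo against Con and 16 in each other comparison, and 0 were called by edgeR or DESeq2, with 3 at an unadjusted p under 0.05 in Exo against Con, 5 in pLV-Exo-Wnt5a against Exo, and 7, Lif among them, in pLV-Exo-Wnt5a against Con. Stat3, the transcription factor of this pathway, lay between 307.5 and 379.7 CPM in pLV-Exo-Wnt5a and between 245.2 and 268.4 CPM in Exo, with a log2FC of 0.43 (SE 0.08) and Q = 0.0498 in edgeR, under the fold limit. In Con it lay between 277.9 and 320.3 CPM and overlapped pLV-Exo-Wnt5a. Among ligands of the pathway, Il6, Osm, and Cntf were at or under 3 counts in every library. Lif lay between 0.0257 and 0.182 CPM in Con, between 0.179 and 0.606 CPM in Exo, and between 0.533 and 0.959 CPM in pLV-Exo-Wnt5a, with a log2FC of 2.74 (SE 0.63, Q = 0.269 in edgeR) against Con and 0.95 (SE 0.52, Q = 0.525 in edgeR) against Exo, and was not tested in Exo against Con, so it passed the filter through the pLV-Exo-Wnt5a libraries. Il11 lay between 0.126 and 0.606 CPM and Clcf1 between 0.0757 and 0.518 CPM over all libraries, with overlap between the groups.

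Among 14 genes of IL-1 and TNF signaling, 11 were tested and 0 were called in any comparison by edgeR or DESeq2, with 4 at an unadjusted p under 0.05 in pLV-Exo-Wnt5a against Exo and 0 in the other comparisons. The receptor gene Tnfrsf1a lay between 60.2 and 70.5 CPM in pLV-Exo-Wnt5a, between 52.4 and 54.7 CPM in Exo, and between 53.6 and 70.8 CPM in Con. Il1b was at or under 3 counts in every library. All 12 genes of the glucocorticoid receptor and its responsive genes were tested and 0 were called by edgeR or DESeq2, with 2, 4, and 2 at an unadjusted p under 0.05 in Exo against Con, pLV-Exo-Wnt5a against Exo, and pLV-Exo-Wnt5a against Con. Mt1, a metallothionein, was at 314 ± 24.1 CPM in pLV-Exo-Wnt5a, 329 ± 28.8 CPM in Exo, and 409 ± 96.3 CPM in Con (SD, n = 3).

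SERPINA3 is itself an acute phase protein, and of the other acute phase genes C4b and A2m were called higher in pLV-Exo-Wnt5a. Of 23 listed, 15 were in the table and 7 were tested in each comparison with pLV-Exo-Wnt5a, with 2 called against Exo, where 0.139% of all genes were called higher, and 1 against Con, where 0.0663% were. Lcn2 was not tested in Exo against Con and passed the filter through the pLV-Exo-Wnt5a libraries, so its direction was set by the filter. The 6 genes tested in all 3 comparisons had a log2FC above 0 against both groups, with a median of 1.28 against Exo and 1.24 against Con, compared with 0.00 over all genes tested. This list was chosen with earlier results of these data known, and C4b was also among the genes most like Serpina3n, so these values are a description. C4b rose against Exo (log2FC 1.62, SE 0.07, Q = 6.91e-07 in edgeR) and against Con (1.16, SE 0.12, Q = 0.00693 in edgeR). A2m, which encodes the broad protease inhibitor alpha-2-macroglobulin, rose against Exo (1.04, SE 0.13, Q = 0.00489 in edgeR), from 134 ± 14.4 to 273 ± 53.9 CPM, and its log2FC against Con was 0.63 (Q = 0.209 in edgeR). Hp, Fga, and Fgb, acute phase genes of the liver, were at or under 3 counts in every library. In Exo against Con, 0 of 6 acute phase genes were called by edgeR or DESeq2, with 2 at an unadjusted p under 0.05.

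Of 12 genes of reactive astrocytes, which share Lcn2 and Cp with the acute phase list, 11 were tested in pLV-Exo-Wnt5a against Exo and 10 against Con. Lcn2 and Hspb1 were not tested in Exo against Con. The 9 genes tested in all 3 comparisons had a log2FC above 0 against both groups, with a median of 0.87 against Exo and 0.96 against Con. Gfap and S1pr3 were also among the genes most like Serpina3n. The genes of this list were chosen with earlier results of these data known, so these values are a description. S1pr3 was the only one called, beside the same shares of all genes, against Exo (log2FC 1.76, SE 0.14, Q = 0.000155 in edgeR) and against Con (1.14, SE 0.16, Q = 0.0278 in edgeR). Gfap (0.86, SE 0.05, Q = 3.36e-05 in edgeR) and Vim (0.62, SE 0.11, Q = 0.0389 in edgeR), another intermediate filament gene, passed the Q threshold against Exo but not the fold limit. Against Con, the log2FC was 0.66 for Gfap (Q = 0.129 in edgeR) and 0.24 for Vim (Q = 0.649 in edgeR). The calls against Con were the less stable. With 1 library left out, C4b was called against Con in 3 of 6 cases and S1pr3 in 2 of 6, A2m was called against Exo in 4 of 6, and C4b and S1pr3 were called against Exo in all 6. In Exo against Con, 0 of 9 reactive astrocyte genes were called by edgeR or DESeq2, with 2 at an unadjusted p under 0.05.

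Markers of cell types were set beside Serpina3n because its level also depends on which cells are present. Summed over 10 astrocyte markers, the level was 6889 to 7282 CPM in pLV-Exo-Wnt5a, 5277 to 5333 CPM in Exo, and 5363 to 6535 CPM in Con, where the highest sum was that of replicate 1 and the others were 5363 and 5425 CPM. Gfap accounted for the higher sum in pLV-Exo-Wnt5a. The other 9 astrocyte markers summed to 2818 to 3253 CPM in pLV-Exo-Wnt5a, 3037 to 3139 CPM in Exo, and 3102 to 3431 CPM in Con, with overlap between groups. Of the 10 markers, 4 had a log2FC above 0 and 6 below 0 in pLV-Exo-Wnt5a against Exo. Their part in the level of Serpina3n was not tested.

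Markers of cells that make Serpina3 proteins outside the nervous system were examined as well, and the part of these cells in the level of Serpina3n was not tested. Of 10 listed markers each, 8 of hepatocytes and 4 of neutrophils and mast cells were in the table. The hepatocyte markers Alb, Tat, and Fgb were at or under 3 counts in every library, and the list summed to between 21.9 and 45.1 CPM, most of it Trf, which glia also express. The neutrophil and mast cell markers S100a8 and Mpo were at or under 3 counts in every library, and the list summed to between 42.6 and 53.4 CPM, nearly all of it Kit, with 46.3 to 50.9 CPM in pLV-Exo-Wnt5a, 49.2 to 53.4 CPM in Exo, and 42.6 to 43.0 CPM in Con. Endothelial markers summed to between 5.99 and 10.4 CPM, with Cdh5, Emcn, and Erg at or under 3 counts. Markers of microglia and macrophages summed to between 51.0 and 61.6 CPM, those of fibroblasts and mural cells to between 184.4 and 220.6 CPM, those of neurons to between 2792 and 3544 CPM, and those of NSCs to between 2788 and 4132 CPM, with overlap between pLV-Exo-Wnt5a and the other groups in each. Single markers within these lists differed. Dcx, a marker of young neurons, lay between 66.2 and 76.2 CPM in pLV-Exo-Wnt5a, between 98.6 and 117.4 CPM in Exo, and between 51.3 and 97.3 CPM in Con, and passed the Q threshold against Exo under the fold limit (log2FC -0.60, SE 0.08, Q = 0.0113 in edgeR). Its part was not tested. Markers of the oligodendrocyte lineage summed to 2582 to 2861 CPM in pLV-Exo-Wnt5a, 2680 to 2917 CPM in Exo, and 2883 to 3323 CPM in Con. Markers of choroid plexus and ependyma summed to 52.9 to 73.1 CPM in pLV-Exo-Wnt5a, 43.5 to 47.4 CPM in Exo, and 43.8 to 54.5 CPM in Con, most of it Foxj1, which passed the Q threshold against Exo under the fold limit (log2FC 0.58, SE 0.10, Q = 0.0451 in edgeR), and their part was not tested. In edgeR, 0 markers of these 10 lists were called in any comparison, with 0 to 6 markers of a list at an unadjusted p under 0.05. The 6 were 6 of 10 astrocyte markers in pLV-Exo-Wnt5a against Exo, where 11.97% of all genes were at that level. They were also 6 of 10 neuron markers in Exo against Con, where 14.92% of all genes were. In the latter, 9 of the 10 neuron markers had a log2FC above 0. The part of these shifts in the level of Serpina3n was not tested.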

How the data were processed

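Expression was measured by RNA-seq in 3 NSC libraries per group. The deposited values are raw whole-number counts, which the authors did not scale. The paper names HISAT2 for alignment, whereas the submitters' processing notes name Bowtie2, RSEM 1.3.1, and DESeq2 1.4.5; the build, annotation, and treatment of reads shared by related genes are not given in the sources used here. Every count column matched a sample.

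For each pair of groups, low genes were removed with filterByExpr, library sizes were scaled by TMM, and edgeR 4.0.16 (R 4.3.3) gave quasi-likelihood tests. Q was adjusted over all genes tested. CPM values were normalized by TMM over all 9 libraries. Pearson's r was computed on log2 CPM (prior count 2). Exact intervals (Clopper-Pearson, 95%) used SciPy 1.17.1. The steps were tested on simulated data. Promoter windows came from RefSeq (GRCr8), and 2 of 6 symbols matched.

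The family, gene lists, and markers were chosen with earlier results of these data known. Named genes were all Serpina3 rows, called genes of each list (otherwise up to 2 of the highest CPM), up to 3 markers per list, and the 10 most and 3 least alike genes. Serping1, Serpini1, Ctsg, Lif, Il11, Clcf1, Lcn2, Hspb1, Serpinb8, Dcx, and genes at or under 3 counts were named after their values were seen. Alternatives were RLE, DESeq2 1.42.0, no filter, at least 10 counts in every library, all 9 libraries in 1 fit, a replicate block, and leaving out each library.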

Additional observations from a re-analysis of the deposited data

How the results depend on the processing

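The direction of the log2FC of Serpina3n did not change in any comparison under any alternative tried. The 2 Serpina3 rows called in each comparison with pLV-Exo-Wnt5a became 1 where at least 10 counts were required in every library, which removes Serpina3i, and, against Con, also with edgeR on all 9 libraries (1). When single libraries were removed, the number ranged from 1 to 2 in both comparisons, and Serpina3i was the row lost, in 5 of 6 fits in each. In Exo against Con it stayed at 0.

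The number of all genes called, which sets the background, was less stable. In Exo against Con it was 1 as reported, 29 with DESeq2, 50 without a filter, 2 on all 9 libraries, and 0 to 138 with a library left out, the highest without Con replicate 3. In pLV-Exo-Wnt5a against Exo it was 24 as reported, 71 with DESeq2, 69 without a filter, and 11 to 27 with a library left out, the lowest without Exo replicate 2. In pLV-Exo-Wnt5a against Con it was 10 as reported, 27 with DESeq2, 33 without a filter, and 1 to 12 with a library left out, the lowest when Con replicate 2 or pLV-Exo-Wnt5a replicate 3 was removed. Of 288 counts over gene lists under the alternatives, 26 moved by over 1.5 times. With DESeq2, the acute phase genes called were 5 against Exo and 3 against Con and the reactive astrocyte genes 4 and 2. Serpini1, a neuronal serpin, was called in Exo against Con without a filter and without Con replicate 3 (log2FC 1.01 and 1.49). By Spearman's rho, 1 of the 10 genes most like Serpina3n was shared, and with a prior count of 0.5, 9 were. For these changes the cause was not tested.

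With the replicate number as a block, the Serpina3 rows called were 0, 2, and 2 and the log2FC of Serpina3n was -0.34, 2.76, and 2.41 in Exo against Con, pLV-Exo-Wnt5a against Exo, and pLV-Exo-Wnt5a against Con. All genes called against Con in pLV-Exo-Wnt5a became 20, and in Exo against Con 0. Same-numbered libraries had correlations of their deviations between -0.201 and 0.0634. These are deviations from means of 3 libraries, so they cannot show whether same-numbered libraries share a culture or a preparation. Serpina3i, at 0 to 6 counts per library outside pLV-Exo-Wnt5a, and the lower rows, at 0 to 15 counts in any library, are limited by depth.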
